A study of Mus musculus with 6 samples.

Results

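The granule neuron lineage transcription factors examined here are Barhl1, Atoh1, Zic1, Zic2, Otx2, Pax6, Neurod1, Neurod2, Nhlh1 and Meis1, taken as every array probe that carries one of these 10 symbols. They account for 15 of the 45281 probes of the array, and 10 of these probes, from 6 genes, were bright enough to be tested together with 17026 probes in all. RNA came from SmoWT-MB, a single line of mouse medulloblastoma cells deficient in Ptch, and was hybridised to Illumina mouse bead arrays. Cells had been exposed for 6 h to JQ1, to GDC-0449 or to the solvent DMSO, with 2 arrays in each of the 3 groups, and all groups share the Ptch-deficient background. The labels give no concentrations and leave unsaid whether the samples sharing a treatment were separate cultures. The p-values therefore measure the spread of these arrays alone, and that spread may be technical.

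JQ1 is an inhibitor of BET bromodomain proteins, which read acetylated chromatin at active genes, and GDC-0449 (vismodegib) blocks Smoothened, the membrane protein that Ptch holds in check. Granule neurons arise from progenitors of the rhombic lip that are set apart by Atoh1, divide under Sonic hedgehog in the outer layer of the cerebellum, and then leave the cycle, migrate inwards and mature. Zic and Meis factors and Pax6 are known in the dividing progenitors, and factors of the Neurod family and Nhlh1 are known in cells that leave the cycle. Hedgehog-driven medulloblastoma is thought to start from these progenitors, so the comparisons ask how the transcription factors of the lineage respond when either arm is inhibited.

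Barhl1, Neurod2 and Meis1 were lower with JQ1 than with DMSO and higher with GDC-0449 than with DMSO, by the brightest probe of each gene. The 250 bases before their annotated transcription starts are shown because these 3 genes moved together in both comparisons and because Atoh1 and Neurod proteins bind E-boxes, whose letters are CANNTG. The sequences are from RefSeq on build GRCm38.p6, are written 5′ to 3′ on the strand of the gene, which is the minus strand for each, and carry every E-box in capitals. The windows lie at chr2:28916669-28916918 for the first Barhl1 start, chr2:28912496-28912745 for the second Barhl1 start, chr11:98329646-98329895 for Neurod2 and chr11:19018970-19019219 for Meis1.
Barhl1 start 1: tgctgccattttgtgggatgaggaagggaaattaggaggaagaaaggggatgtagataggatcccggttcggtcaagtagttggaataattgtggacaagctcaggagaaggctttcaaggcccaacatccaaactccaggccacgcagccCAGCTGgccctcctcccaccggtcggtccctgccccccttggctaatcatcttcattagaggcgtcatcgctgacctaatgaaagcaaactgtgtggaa
Barhl1 start 2: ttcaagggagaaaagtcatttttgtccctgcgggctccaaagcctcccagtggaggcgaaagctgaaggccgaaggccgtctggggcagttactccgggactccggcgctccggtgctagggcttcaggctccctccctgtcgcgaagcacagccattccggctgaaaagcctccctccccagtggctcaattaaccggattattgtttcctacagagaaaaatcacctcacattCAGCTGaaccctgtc
Neurod2: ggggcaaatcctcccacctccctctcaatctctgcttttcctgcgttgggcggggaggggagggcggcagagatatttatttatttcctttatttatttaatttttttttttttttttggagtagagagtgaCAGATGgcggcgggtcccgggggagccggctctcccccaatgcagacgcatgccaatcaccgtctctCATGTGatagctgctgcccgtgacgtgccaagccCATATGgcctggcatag
Meis1: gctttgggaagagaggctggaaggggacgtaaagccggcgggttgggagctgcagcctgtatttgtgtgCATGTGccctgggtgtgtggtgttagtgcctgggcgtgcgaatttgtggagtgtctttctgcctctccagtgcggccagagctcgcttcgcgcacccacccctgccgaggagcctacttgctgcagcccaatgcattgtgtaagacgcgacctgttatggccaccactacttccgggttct

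Both Barhl1 windows held 1 E-box, each with the letters CAGCTG, beginning 99 bases before the first start and 15 bases before the second. The Neurod2 window held 3 E-boxes, beginning 118, 51 and 17 bases before the start, the farthest of them with the letters CAGATG. The Meis1 window held 1 E-box, 181 bases before its start. E-boxes are common: of 32851 mouse windows of the same length, searched on both strands, 66.2% held CANNTG, 13.0% held CAGCTG and 14.4% held CAGATG, the last 2 being E-boxes themselves. Of the 14 windows found for 9 of the 10 genes, 11 held an E-box; Zic2 had no window. TAATCC, the motif of Otx proteins, lay in the second Barhl1 window, 53 bases before the start, and in 6.25% of all windows. TGACAG, the motif of Meis proteins, lay 121 bases before the Neurod2 start, where it overlaps the CAGATG, and in 15.9% of all windows. GACCACCCA, the motif of the Hedgehog effectors of the Gli family, was in 0 of the 14 windows and in 0.225% of all windows.

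All values below are log2 normalized intensities unless called deposited, and array-wide normalization makes them relative to the other probes of the array. In bulk RNA, fewer cells of a type and less RNA per cell cannot be told apart. Between 15125 and 16466 probes were detected per array (detection p under 0.01), fewer on the JQ1 arrays (15125 and 15345) than on the GDC-0449 (16357 and 16154) and DMSO arrays (16466 and 16230), and replicates correlated at 0.995 to 0.996. The first DMSO array was the brightest, with a mean deposited intensity of 408. The mean was 344 on the second DMSO array and 303 to 313 on the JQ1 and GDC-0449 arrays. Deposited intensities compared below carry this difference. Hexim1, whose rise is a known mark of BET inhibition, was 2.83 higher with JQ1 than with DMSO (adjusted p = 1.09e-06, limma with Benjamini-Hochberg adjustment, as for all adjusted p-values here) and differed by 0.15 with GDC-0449 (adjusted p = 0.367; -0.08 when arrays were scaled by their medians alone). Ptch1 and Hhip, targets of Hedgehog signalling, changed by -1.70 and -1.55 with JQ1 and by -1.83 and -1.94 with GDC-0449, each past the threshold.

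Against DMSO, JQ1 was called higher in 2 member genes (Zic1 and Zic2) and lower in 3 (Neurod2, Barhl1 and Meis1) of the 6 tested, with a call meaning an adjusted p under 0.05. Over the whole array 27.6% of tested probes were called higher and 28.8% lower in that comparison, 56.4% in all. GDC-0449 against DMSO was called higher in 4 member genes (Barhl1, Neurod2, Otx2 and Meis1) and lower in 0, where 7.32% of all tested probes were called higher and 8.23% lower, 15.6% in all. JQ1 against GDC-0449 was called lower in 4 (Barhl1, Neurod2, Meis1 and Otx2) and higher in 1 (Zic2), with 26.6% of all probes called lower and 25.7% higher, 52.3% in all. The median log2 difference of the 6 genes was -0.22 with JQ1 and 0.59 with GDC-0449 against DMSO, and -0.81 for JQ1 against GDC-0449, where the medians of all tested probes were -0.00025, 0.014 and 0.0064. When arrays were scaled by their medians alone, JQ1 against DMSO was called higher in 0 and lower in 3 of the 6 genes, and GDC-0449 against DMSO higher in 3 and lower in 0. That scaling moved the median of all tested probes to -0.30 with JQ1 and -0.20 with GDC-0449. With either compound it called more of all tested probes lower than higher. The comparisons of both compounds use the same 2 DMSO arrays and so are not independent of each other.

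**Figure D1:**
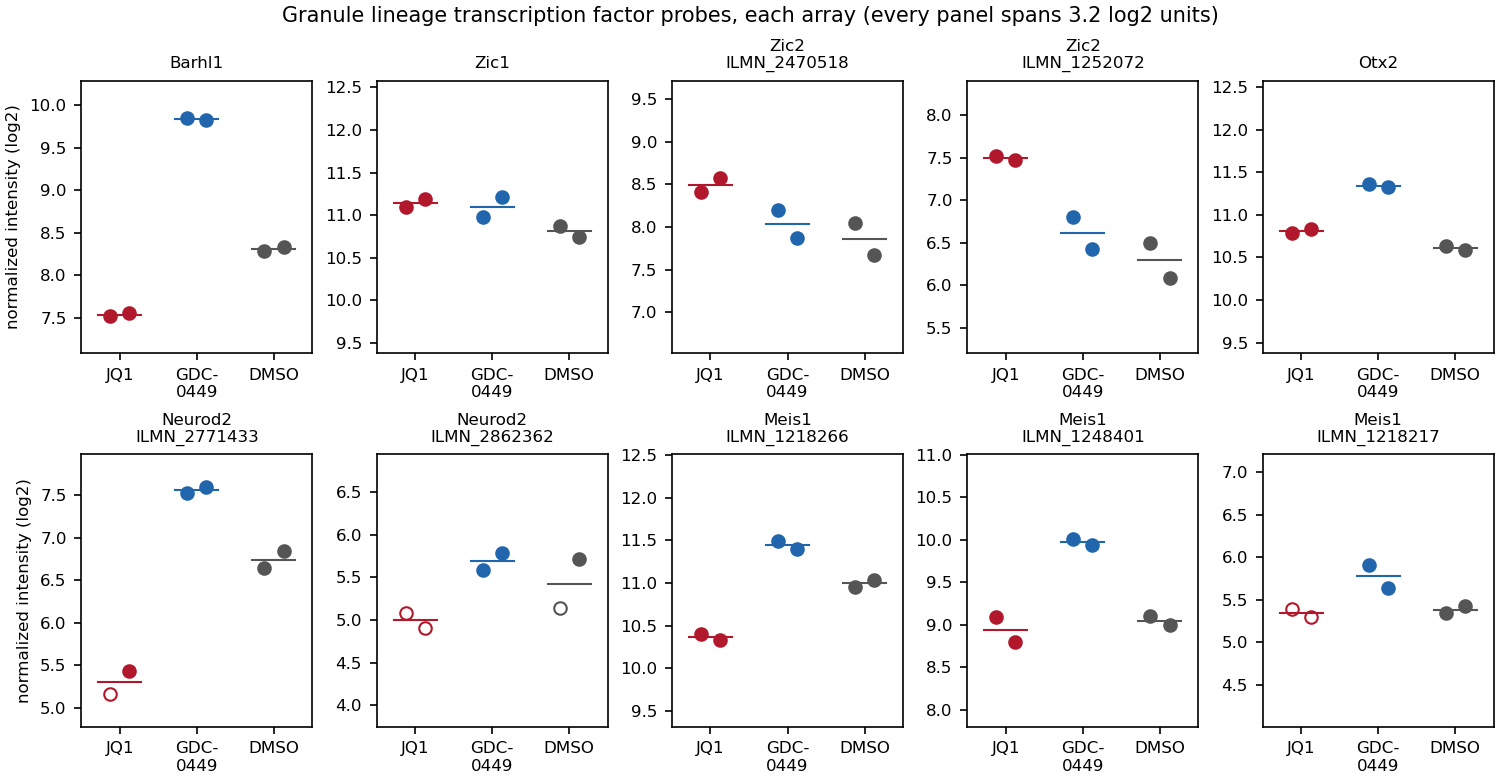
Normalized intensity (log2) of the 10 tested probes on each array, by group (JQ1, GDC-0449, DMSO), with bars at the group means of 2 arrays and open circles for arrays on which the probe was not detected. Barhl1 lay at 9.85 and 9.82 with GDC-0449, above 8.28 and 8.34 with DMSO, and at 7.52 and 7.55 with JQ1.

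Barhl1 is a homeodomain factor that acts downstream of Atoh1 and is needed for the migration and survival of granule neurons. Its single probe read 7.52 and 7.55 on the JQ1 arrays, 9.85 and 9.82 on the GDC-0449 arrays, and 8.28 and 8.34 on the DMSO arrays. The 3 groups did not overlap, and the same order held in the deposited intensities, at 182 and 193 with JQ1, 883 and 884 with GDC-0449, and 454 and 383 with DMSO. JQ1 lowered it by 0.77 relative to DMSO (SE 0.091), a 1.71-fold difference, with an adjusted p of 0.000173. GDC-0449 raised it by 1.53 (SE 0.091), or 2.89-fold, with an adjusted p of 0.000121. Between the compounds the difference was -2.30, 4.93-fold lower with JQ1 (adjusted p = 1.37e-06). Each of the 3 Barhl1 calls was kept in all 17 alternative settings.

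The bHLH factors of the list fell into those that could be measured and those that could not. Neurod2, which acts in the survival and maturation of granule neurons, has a brighter probe (ILMN_2771433) that read 5.17 and 5.44 with JQ1, 7.53 and 7.59 with GDC-0449, and 6.64 and 6.84 with DMSO. The groups did not overlap, and the probe was detected on every array but the first with JQ1, so that 1 of the 2 JQ1 values was not above background. The deposited intensities ran in the same order, at 60.9 and 69.0 with JQ1, 209 and 223 with GDC-0449, and 163 and 155 with DMSO. Neurod2 fell by 1.44 with JQ1 relative to DMSO (SE 0.12, adjusted p = 3.00e-05), a size that depends on the background: the difference was -0.83 without background correction and -0.94 with an offset of 50. With GDC-0449 it rose by 0.82 (SE 0.12, 1.76-fold, adjusted p = 0.00508). JQ1 against GDC-0449 differed by -2.26 (adjusted p = 4.44e-06), by -1.45 without background correction and by -1.60 with the offset of 50. The calls held in these settings.

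The dimmer Neurod2 probe (ILMN_2862362) read 5.09 and 4.90 with JQ1, 5.59 and 5.79 with GDC-0449, and 5.14 and 5.71 with DMSO. It was not detected with JQ1, was detected on both GDC-0449 arrays and on 1 DMSO array, and its GDC-0449 and DMSO values overlapped. Against DMSO it passed the test for neither compound, with differences of -0.43 for JQ1 (adjusted p = 0.0675) and 0.26 for GDC-0449 (adjusted p = 0.347). JQ1 was at least 1.19-fold lower than GDC-0449 (adjusted p = 0.0107), a bound that sets the undetected JQ1 arrays at the dimmest signal counted as detected. The difference was -0.69, and -0.33 without background correction. That call was lost without the filter on dim probes, without the second JQ1 array and without the second GDC-0449 array, and the highest adjusted p among the settings was 0.0603.

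Atoh1, the founder of the lineage, was detected on 0 of 6 arrays, with deposited intensities between 39.7 and 42.4 and detection p-values between 0.768 and 0.824. Nhlh1, a bHLH factor of postmitotic cells, was also detected on 0 of 6 arrays, at intensities of 40.0 to 51.1 and detection p-values of 0.230 to 0.843. Neurod1, which drives progenitors into differentiation, was detected on 1 array, the first with GDC-0449, at a detection p of 0.00534. Its deposited intensities were 45.5 and 48.7 with JQ1, 68.0 and 67.9 with GDC-0449, and 67.1 and 67.8 with DMSO. The JQ1 arrays were the lowest for Neurod1, but every JQ1 and DMSO value was counted as not above background, so no fold is given.

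Pax6, a paired-box and homeodomain factor of progenitors and neurons, has 2 probes, and both were detected on 0 of 6 arrays. Their detection p-values spanned 0.199 to 0.656 for the first probe (ILMN_2504978) and 0.449 to 0.743 for the second (ILMN_2612187). For Atoh1, Pax6 and Nhlh1 the arrays give no level above background in SmoWT-MB cells, so these markers of the lineage were not detected, and a change below this limit would not be seen.

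**Figure D2:**
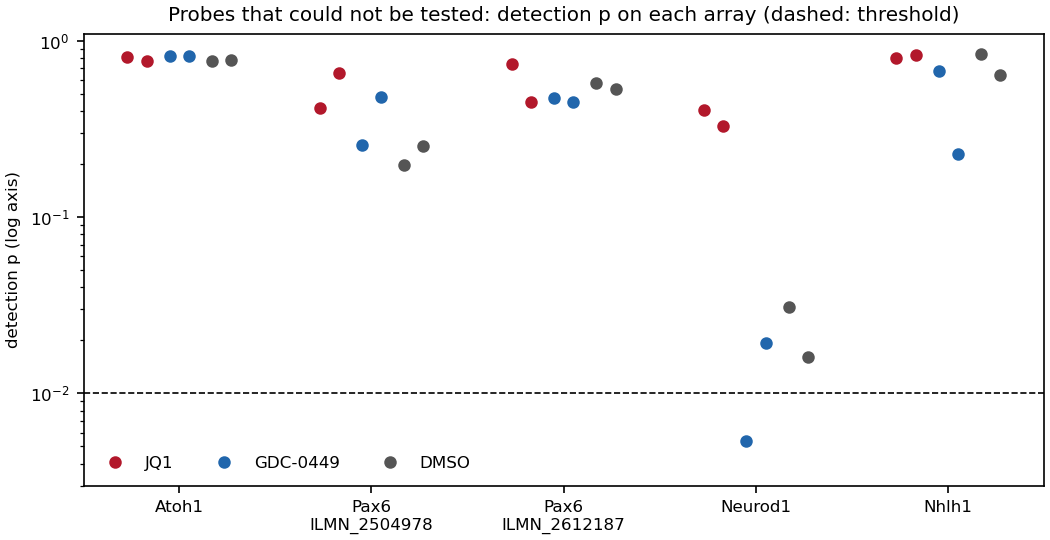
Detection p (log axis) on each array, by group (JQ1, GDC-0449, DMSO), for the 5 probes that could not be tested, with the dashed line at the threshold of 0.01. A single point, Neurod1 on the first GDC-0449 array at 0.00534, lies below the line.

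Meis1 is a homeodomain factor that binds DNA with Pbx partners and is known in granule progenitors. Its brightest probe (ILMN_1218266) read 10.40 and 10.33 with JQ1, 11.50 and 11.40 with GDC-0449, and 10.95 and 11.04 with DMSO. The 3 groups did not overlap on this scale. In the deposited intensities the GDC-0449 arrays (2660 and 2514) and the DMSO arrays (2689 and 2297) did overlap, and the JQ1 arrays lay lower (1209 and 1211). The 2689 is from the first DMSO array, the brightest as a whole. Meis1 fell by 0.63 with JQ1 (SE 0.097, adjusted p = 0.000689), and this call was kept in all 17 settings. With GDC-0449 it was higher by 0.45 (SE 0.097, adjusted p = 0.0186). The GDC-0449 call was lost when arrays were scaled by their medians alone (0.14, adjusted p = 0.473) and without any one of the 2 GDC-0449 and 2 DMSO arrays, where the adjusted p reached 0.0951. JQ1 lay 1.09 below GDC-0449 on this probe (a difference of -1.09, 2.12-fold, adjusted p = 4.25e-05).

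The other Meis1 probes gave the same order of JQ1 and GDC-0449 but not the fall with JQ1. ILMN_1248401 read 9.09 and 8.79 with JQ1, 10.01 and 9.94 with GDC-0449, and 9.10 and 9.00 with DMSO, so that JQ1 and DMSO overlapped. Its difference of JQ1 from DMSO was -0.11, with a 95% interval of -0.38 to 0.16 (adjusted p = 0.467), whereas GDC-0449 raised it by 0.92 (adjusted p = 0.00263) and JQ1 was 2.05-fold below GDC-0449 (adjusted p = 0.000165). Under scaling by medians, the JQ1 difference of this probe was -0.46 and passed the test. The dim probe ILMN_1218217 read 5.39 and 5.30 with JQ1, 5.91 and 5.64 with GDC-0449, and 5.35 and 5.42 with DMSO, and was not detected with JQ1. It differed from DMSO by -0.04 with JQ1 (adjusted p = 0.783) and by 0.39 with GDC-0449 (adjusted p = 0.0541). JQ1 was at least 1.27-fold below GDC-0449 on it (adjusted p = 0.0131), a call lost without the second JQ1 array or the first GDC-0449 array. The difference was -0.43, and -0.22 without background correction. The difference between Meis1 probes was not tested.

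Otx2, a homeodomain factor of the developing brain that is overexpressed in some human medulloblastomas, read 10.78 and 10.83 with JQ1, 11.36 and 11.33 with GDC-0449, and 10.64 and 10.59 with DMSO. The GDC-0449 arrays were the highest and overlapped neither of the other groups, also in the deposited intensities (1591 and 1719 with JQ1, 2411 and 2400 with GDC-0449, 2143 and 1704 with DMSO). GDC-0449 raised Otx2 by 0.73 (SE 0.092, 1.66-fold, adjusted p = 0.00236), with the call kept in every alternative setting tried, at 0.41 under scaling by medians. JQ1 differed from DMSO by 0.19, with a 95% interval of -0.016 to 0.40 (adjusted p = 0.103) and a value of -0.07 under scaling by medians, and was 1.45-fold below GDC-0449 (adjusted p = 0.00136). With moderation by a variance trend the JQ1 difference from DMSO passed the test (adjusted p = 0.0334).

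The Zic proteins are zinc-finger factors that keep granule progenitors in an undifferentiated state. Zic1 read 11.10 and 11.19 with JQ1, 10.98 and 11.21 with GDC-0449, and 10.87 and 10.75 with DMSO. Both treated groups lay above DMSO on this scale, but in the deposited intensities all 3 groups overlapped, at 1991 and 2244 with JQ1, 1874 and 2202 with GDC-0449, and 2540 and 1904 with DMSO. The 2540 is from the first DMSO array, the brightest as a whole. JQ1 was called higher than DMSO by 0.33 (SE 0.11, adjusted p = 0.0334). That call was lost under scaling by medians (0.08, adjusted p = 0.667), without the filter on dim probes, and without any one of the JQ1 or DMSO arrays (adjusted p up to 0.149). GDC-0449 differed from DMSO by 0.28 (adjusted p = 0.123; -0.04 under scaling by medians), and JQ1 from GDC-0449 by 0.05 (adjusted p = 0.743).

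Zic2 was higher with JQ1 on both of its probes. The second probe (ILMN_1252072) read 7.52 and 7.47 with JQ1, 6.80 and 6.43 with GDC-0449, and 6.50 and 6.09 with DMSO. JQ1 arrays overlapped neither of the other groups, and GDC-0449 and DMSO overlapped each other. The same held in the deposited intensities, at 181 and 184 with JQ1, 140 and 119 with GDC-0449, and 151 and 105 with DMSO. JQ1 raised this probe by 1.20 (SE 0.16, 2.30-fold, adjusted p = 0.000361), and it was 1.85-fold above GDC-0449 (adjusted p = 0.00204); both calls were kept in all 15 settings. GDC-0449 differed from DMSO by 0.32, with a 95% interval of -0.055 to 0.69 (adjusted p = 0.219).

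The brighter Zic2 probe (ILMN_2470518), by which the gene is counted, read 8.41 and 8.57 with JQ1, 8.20 and 7.87 with GDC-0449, and 8.05 and 7.67 with DMSO. JQ1 lay above both other groups here, but its deposited intensities (313 and 364) lay between those of the DMSO arrays (387 and 252). The 387 is from the first DMSO array, the brightest as a whole. JQ1 was higher than DMSO by 0.63 (SE 0.16, adjusted p = 0.00876) and than GDC-0449 by 0.46 (adjusted p = 0.0375). The first call was lost under scaling by medians (0.27, adjusted p = 0.206) and without the second DMSO array (adjusted p = 0.0675). The second was lost under scaling by medians, without the filter on dim probes, and without the first JQ1, second JQ1 or second GDC-0449 array, with adjusted p-values up to 0.211. GDC-0449 against DMSO gave 0.17 on this probe, with a 95% interval of -0.19 to 0.53 (adjusted p = 0.489), and -0.06 under scaling by medians.

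**Figure D3:**
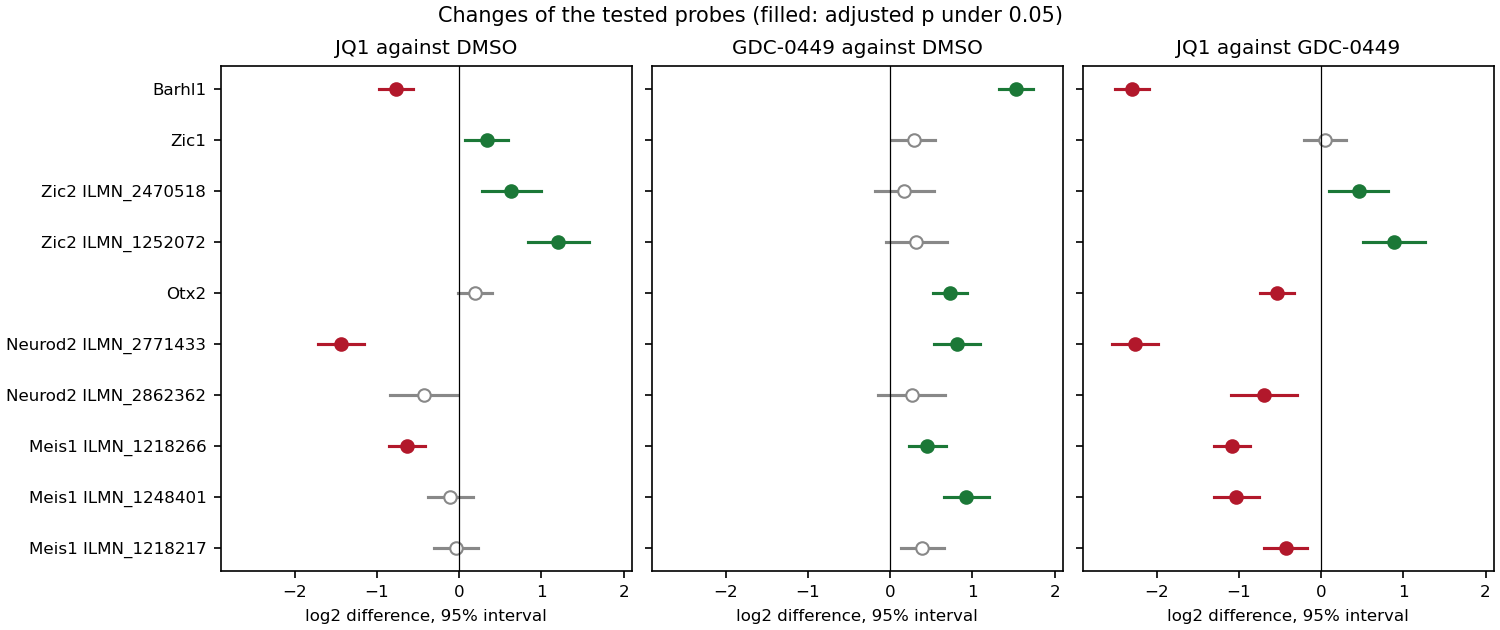
Log2 differences with 95% intervals for the 10 tested probes, each compound set against DMSO in its own panel and JQ1 against GDC-0449 in the last, with filled circles for adjusted p under 0.05 (green higher, red lower). With GDC-0449 against DMSO 5 probes were called higher and 0 lower, against 7.32% and 8.23% of all tested probes. With JQ1 against GDC-0449 2 were called higher and 7 lower, against 25.7% and 26.6%.

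Counted by probe, JQ1 against DMSO was called higher for 3 and lower for 3 of the 10 tested member probes, against 27.6% and 28.8% of all tested probes. GDC-0449 against DMSO was called higher for 5 and lower for 0, against 7.32% and 8.23% of all tested probes. JQ1 against GDC-0449 was called higher for 2, both of Zic2, and lower for 7, from Barhl1, Otx2, Neurod2 and Meis1. Of all tested probes 25.7% were called higher and 26.6% lower between the compounds. In that last comparison the JQ1 arrays lay wholly below the GDC-0449 arrays for 7 of 10 probes, and wholly above for 2, against 38.3% and 38.6% of all tested probes (76.9% either way). With GDC-0449, both arrays lay above both DMSO arrays for 7 of 10 probes and below for 0, against 31.5% and 29.1% of all tested probes (60.6% either way). With JQ1, both arrays lay below both DMSO arrays for 4 probes and above for 4, against 39.4% and 39.2% of all tested probes (78.6% either way).

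Zic4 lies next to Zic1 on the chromosome, with annotated spans that overlap at their ends, and Zic5 next to Zic2 with 1 long noncoding RNA between them, by the order of RefSeq genes. Zic4, another zinc-finger factor of the family, read 8.53 and 8.66 with JQ1, 9.80 and 9.83 with GDC-0449, and 9.21 and 9.19 with DMSO on its brightest probe (ILMN_1242831). The 3 groups did not overlap. Zic4 fell by 0.61 with JQ1 (adjusted p = 0.000843), and all 4 of its tested probes, of 5 on the array, were called lower, with differences between -0.83 and -0.42. With GDC-0449 the brightest probe was higher by 0.61 (adjusted p = 0.00595), but the other 3 tested probes, all with higher means, passed no test, and scaling by medians removed the call (0.32, adjusted p = 0.104). JQ1 against DMSO was thus called higher for Zic1 and lower for its neighbour Zic4, with the Zic1 call resting on the scaling; the difference between the genes was not tested. Zic5 was detected on 0 of 6 arrays.

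**Figure D4:**
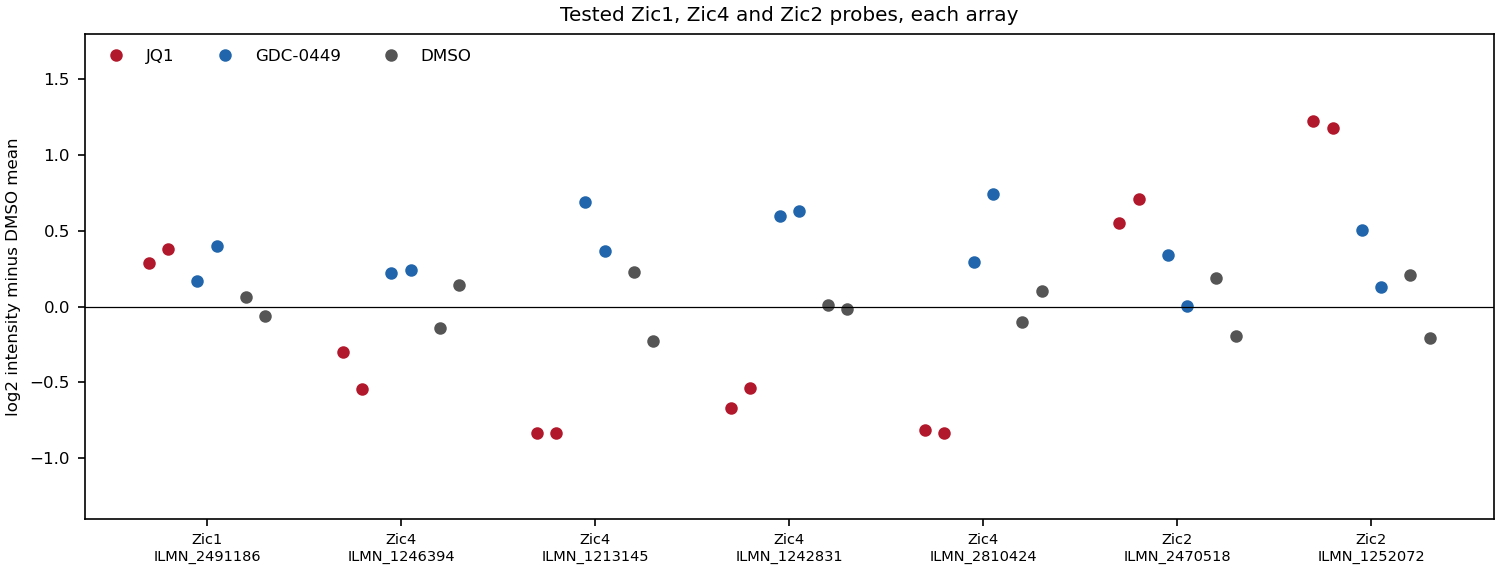
Log2 intensity of each array minus the mean of the 2 DMSO arrays for the tested probes of Zic1, Zic4 and Zic2, by group (JQ1, GDC-0449, DMSO). The JQ1 arrays lie below the DMSO mean for the 4 Zic4 probes and above it for the probes of Zic1 and Zic2.

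Over all tested probes, 27.6% were called higher and 28.8% lower with JQ1, and 7.32% and 8.23% with GDC-0449. Of 13 relatives of the members by gene family, 3 could be tested, and 2 were called lower with JQ1 and 0 higher. Beside Zic4 this was Otx1, a homeodomain factor close to Otx2, which read 7.43 and 7.46 with JQ1, 8.93 and 9.07 with GDC-0449, and 8.69 and 9.10 with DMSO. Otx1 fell by 1.45 with JQ1 (adjusted p = 5.57e-05) and differed by 0.11 with GDC-0449 (adjusted p = 0.622), the JQ1 arrays being the lowest and the others overlapping. Meis3 gave -0.07 with JQ1 and 0.20 with GDC-0449 (adjusted p = 0.789 and 0.516). With GDC-0449, 1 of the 3 was called higher, which was Zic4.

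All 7 partners with which the members bind DNA could be tested. With JQ1, 3 were called higher and 2 lower, against 27.6% and 28.8% of all tested probes. With GDC-0449, 2 were called higher and 0 lower, against 7.32% and 8.23% of all tested probes. E proteins pair with Atoh1 and Neurod factors on E-boxes, and the genes listed as such did not all go the same way with JQ1. The probe deposited as Tcf3 was 0.77 higher (adjusted p = 0.000195), and whether it is for the E protein was not checked. Tcf12 fell by 0.88 on its brightest probe (adjusted p = 0.000580). Its other tested probes gave -0.22 and -0.21 and were not called (adjusted p = 0.0806 and 0.214). Tcf4 gave -0.36 and was called lower (adjusted p = 0.0108). With GDC-0449 Tcf12 gave -0.37 (adjusted p = 0.0938). Among the Pbx partners of Meis1, Pbx4 was 0.60 higher with JQ1 on its brightest probe (adjusted p = 0.00312). Its other tested probes gave 0.78 (adjusted p = 0.00460) and 0.03, the last not called (adjusted p = 0.897). Pbx2 was 0.72 higher with GDC-0449 on its brightest probe (adjusted p = 0.00248). Its other tested probes gave 0.76 (adjusted p = 0.0122) and 0.13, the last not called (adjusted p = 0.609). That last Pbx2 probe was called lower with JQ1 (-0.64, adjusted p = 0.00820), while the brightest gave 0.09 (adjusted p = 0.416). Pbx4 gave 0.42 with GDC-0449 (adjusted p = 0.0515). Under scaling by medians the partners gave 1 higher and 2 lower with JQ1, and 1 higher and 1 lower with GDC-0449. That scaling called more of all tested probes lower than higher with either compound.

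Of 10 Id, Hes and Hey genes, listed as holding bHLH factors in check, 6 could be tested. Hes6 is an exception in that role and is included in the counts below. With JQ1, 3 were called higher and 2 lower, against 27.6% and 28.8% of all tested probes. Hes6, which in the mouse brain promotes differentiation by opposing Hes1, was 0.75 higher (adjusted p = 0.000399). The Notch target Hes5 was 0.54 higher (adjusted p = 0.00276). Id1, a partner of E proteins that cannot bind DNA, was 0.61 higher (adjusted p = 0.00736). Its relative Id2 fell by 0.58 (adjusted p = 0.000923). With GDC-0449, 4 were called higher and 0 lower: Hey1 by 0.68, Id2 by 0.67, Hes5 by 0.57 and Hes6 by 0.57, with adjusted p-values between 0.00397 and 0.0122. The other tested Hes5 probe gave 0.22 with GDC-0449 and was not called (adjusted p = 0.272). Of all tested probes 7.32% were called higher and 8.23% lower with GDC-0449. Id2 thus was lower with JQ1 and higher with GDC-0449, and JQ1 lay 2.38-fold below GDC-0449 on it (-1.25, adjusted p = 1.80e-05). Hey1 moved the same way, at -0.41 with JQ1 against DMSO (adjusted p = 0.00893). On Hey1, JQ1 lay 2.12-fold below GDC-0449 (-1.09, adjusted p = 5.54e-05). Under scaling by medians, which called more of all tested probes lower than higher with either compound, the list gave 1 higher and 2 lower with JQ1. With GDC-0449 it gave 1 higher and 1 lower.

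Of 14 other transcription factors known in the granule lineage, 10 could be tested, and with JQ1 1 was called higher and 6 lower. Of all tested probes 27.6% were called higher and 28.8% lower with JQ1. Nfia, a nuclear factor I protein of maturing granule neurons, read 8.34 and 8.02 with JQ1, 10.15 and 9.92 with GDC-0449, and 9.72 and 9.69 with DMSO. It fell by 1.52 with JQ1 (adjusted p = 3.10e-05). The Hedgehog effector Gli2 fell by 0.79 with JQ1 (adjusted p = 0.000255) and by 0.78 with GDC-0449 (adjusted p = 0.00257). Insm1, a zinc-finger factor of neuronal progenitors, fell by 0.40 with JQ1 (adjusted p = 0.00593). Tlx3 was not detected with JQ1 and was at least 1.36-fold below DMSO, the tested difference being -0.73 (adjusted p = 0.000415). With GDC-0449, 3 of the 10 were called higher and 2 lower. The higher ones were Tlx3 by 0.58, Lhx9 by 0.69 and Nfix by 0.47, with adjusted p-values between 0.00942 and 0.0276. Of the other tested Nfix probes, that at 0.34 was called (adjusted p = 0.0434). Those at 0.29 and 0.19 were not (adjusted p = 0.0780 and 0.308). Of all tested probes 7.32% were called higher and 8.23% lower with GDC-0449. Scaling by medians gave 0 higher and 7 lower with JQ1, and 2 higher and 2 lower with GDC-0449. More of all tested probes were called lower than higher under it with either compound.

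Genes of granule neuron maturation gave 8 tested of 14, of which 13 were found on the array. With JQ1, 0 were called higher and 5 lower, with a median difference of -0.71. Of all tested probes 27.6% were called higher and 28.8% lower with JQ1. Dcx, a microtubule protein of migrating neurons, read 7.50 and 7.21 with JQ1, 9.61 and 9.49 with GDC-0449, and 8.91 and 9.00 with DMSO. It fell by 1.60 with JQ1 (adjusted p = 1.50e-05) and rose by 0.59 with GDC-0449 (adjusted p = 0.0149). Cntn2, an adhesion protein of young granule neurons, read 7.75 and 7.68 with JQ1, 9.62 and 9.69 with GDC-0449, and 8.81 and 8.87 with DMSO. It fell by 1.13 with JQ1 (adjusted p = 2.73e-05) and rose by 0.81 with GDC-0449 (adjusted p = 0.00179). Astn1, a protein of glia-guided migration, fell by 1.46 and Calb2 by 0.98 with JQ1 (adjusted p = 1.33e-05 and 0.000301). The remaining gene called lower, Cntn1, was not detected with JQ1, the tested difference being -0.44 (adjusted p = 0.0445). Its DMSO mean of 5.42 was too near the dimmest detected signal for an "at least" fold. With GDC-0449, 4 were called higher and 0 lower. Beside Cntn2 and Dcx these were Map2, a microtubule protein of dendrites, by 0.55 on its brightest probe (adjusted p = 0.0265), and Cbln1. Cbln1, a synapse organiser secreted by granule neurons, was higher by 0.35 (adjusted p = 0.0432). The other tested Map2 probes gave 0.90, 0.55 and 0.30, the last not called (adjusted p = 0.239). Of all tested probes 7.32% were called higher and 8.23% lower with GDC-0449. Scaling by medians, which moved the median of all tested probes to -0.30 with JQ1 and -0.20 with GDC-0449, left 7 of the 8 called lower with JQ1 and 1 called higher with GDC-0449.

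**Figure D5:**
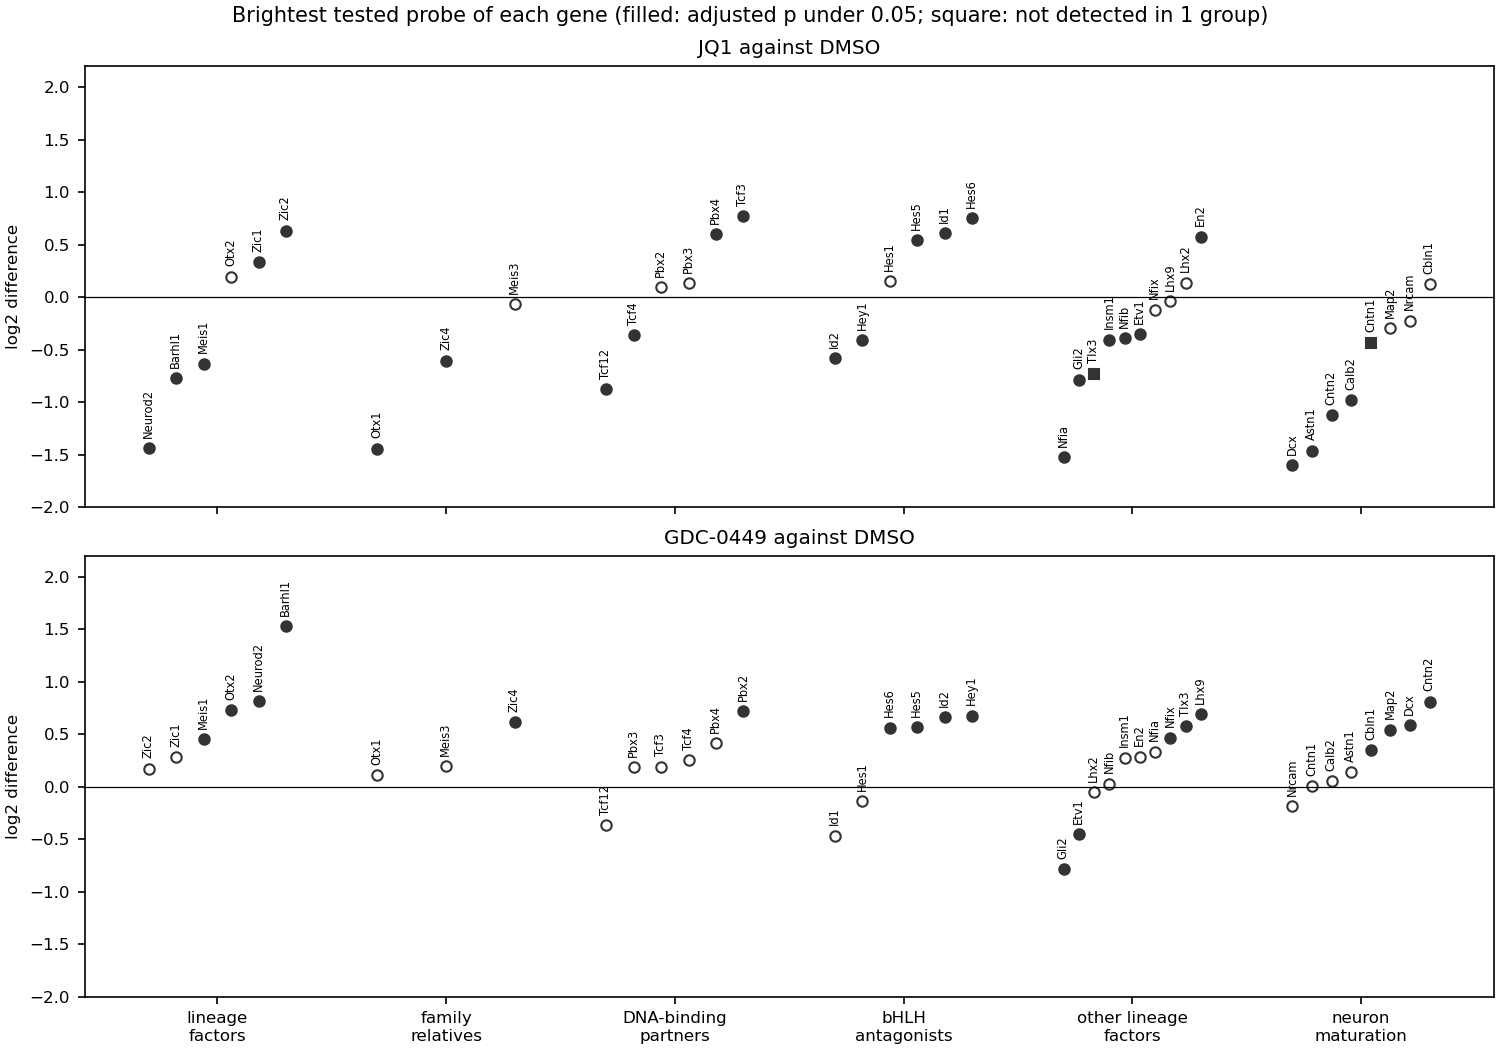
Log2 differences of JQ1 against DMSO (top) and GDC-0449 against DMSO (bottom) for the brightest tested probe of the genes in 6 lists (1 DNA-binding partner is not drawn), with filled symbols for adjusted p under 0.05 and squares for genes not detected in 1 of the groups compared. Of the neuron maturation genes, 5 of 8 were called lower with JQ1 and 4 of 8 higher with GDC-0449. Of all tested probes 28.8% were called lower with JQ1 and 7.32% higher with GDC-0449.

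The genes whose 6 array values ran closest to those of a member were sought among 8408 gene symbols by the distance between values centred on the DMSO arrays. For Barhl1 these were Ccdc114, Nrn1 and Mfap4, at distances of 0.365 to 0.545 on the log2 scale, with JQ1 differences of -0.75, -0.87 and -0.47 and GDC-0449 differences of 1.29, 1.24 and 1.32. For Neurod2 these were Pdzrn3, Kcnip3 and Tnfsf12-tnfsf13, at distances of 0.322 to 0.470, and for Meis1 Fut10, Fcho1 and Rapgef1, at 0.0681 to 0.187. Chkb, Pold4 and Nat14 were nearest to Otx2 (0.0649 to 0.149). Zic1 was matched by Msi2, Fhod3 and Reck (0.0862 to 0.0931), and Zic2 by Itsn1, Tbc1d16 and Aff4 (0.120 to 0.183).

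Markers of other cell types were looked at beside these results, and those named were chosen after their values were seen. Of all tested probes 27.6% were called higher and 28.8% lower with JQ1, and 7.32% and 8.23% with GDC-0449. The sums given here and below take the brightest probe of every gene in a list. Genes detected on 0 of 6 arrays thus add background signal to them. Of 8 oligodendrocyte markers, 4 could be tested and 3 were called lower with JQ1, and the summed normalized intensity of the list was 254 to 265 with JQ1, 562 to 566 with GDC-0449 and 654 to 694 with DMSO. Mbp, a myelin protein, fell by 2.16 with JQ1 (adjusted p = 3.22e-06) on its brightest probe, its other tested probe giving -0.60, while Olig1, Olig2, Sox10 and Mog were detected on 0 of 6 arrays. Of 6 astrocyte markers, 2 could be tested and both were called lower with JQ1, with sums of 1999 to 2082 with JQ1, 4150 to 4298 with GDC-0449 and 4041 to 4763 with DMSO. Gfap, Aqp4, Aldh1l1 and S100b were detected on 0 of 6 arrays.

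Of 5 neural stem cell markers, Nes and Vim could be tested and both were called higher with JQ1, by 0.62 and 0.76. With GDC-0449 Vim was also called higher, by 0.54 (adjusted p = 0.0114), and Nes gave -0.17 (adjusted p = 0.304). Prom1 and Fabp7 were detected on 0 of 6 arrays, and no Sox2 probe on more than 1. The sums of the list were 3707 to 4032 with JQ1, 3049 to 3105 with GDC-0449 and 2327 to 2450 with DMSO. Of 10 markers of cerebellar GABAergic cells 3 could be tested, with sums of 3147 to 3250 with JQ1, 4074 to 4224 with GDC-0449 and 2174 to 2388 with DMSO, and Ptf1a, Gad1 and Gad2 were detected on 0 of 6 arrays. With JQ1, 1 of the 3 was called higher (Lhx1) and 2 lower (Pcp2 and Foxp2), with a median difference of -0.63, and with GDC-0449 1 was called higher and 0 lower. Of 4 markers of unipolar brush cells, another product of the rhombic lip, Tbr1 alone could be tested. It was not detected with JQ1 and was at least 1.50-fold lower than with DMSO, the tested difference being -1.47 (adjusted p = 1.68e-05). The sums were 87.0 to 92.5 with JQ1, 122 to 130.0 with GDC-0449 and 123 to 136 with DMSO, and Eomes was detected on 0 of 6 arrays. For microglia and endothelium 1 marker each could be tested, and for fibroblasts 0 of 6, and none of these was called. The part of other cell types in the member genes' changes was not tested.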

How the data were processed

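RNA of 6 samples was measured on Illumina mouse bead arrays. The deposited table holds, per the file headers, the average signal of each probe, a linear intensity not yet normalized, with its detection p-value. Per the submitters' processing notes, GenomeStudio 1.9.0 was used. Other upstream steps are not given in the sources used here.

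With limma 3.58.1 in R 4.3.3, background was corrected by neqc from the detection p-values with an offset of 16, arrays were quantile normalized, and log2 values were taken; the offset draws dim probes towards 0. Tested were probes that 2 or more of the 6 arrays detected (p under 0.01), by limma (lmFit and eBayes on all 6 arrays, 3 residual degrees of freedom and 5.44 from the prior, two-sided, Benjamini-Hochberg within a comparison, threshold 0.05). The number of arrays limits the precision: the SE of a member probe lay between 0.091 and 0.18. A gene is counted by its brightest tested probe. An "at least" fold raises undetected arrays to the lowest detected signal of the array. The adjusted p given with it is that of the difference without this bound. The test was tried on simulated data.

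The members and lists were chosen with earlier results of these data known. All member probes are named, and of each of 5 other lists up to 4 tested genes with the smallest p per comparison with DMSO, with Hexim1, Ptch1 and Hhip as checks; for likeness, the nearest 3 symbols per member. A DNA-binding partner that this rule would name is not reported here by name. Other genes named were chosen after their values were seen. Symbols were matched as deposited, then by RefSeq synonym. Promoters are from RefSeq, GRCm38.p6; the build behind the array annotation is not given in the sources used here.

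The authors' deposited value table, an alternative here, holds linear intensities, some below 0, with nearly equal column medians (8.15); it was taken as background-subtracted and quantile-normalized from these values, its centring and further steps being unknown, and was shifted by 32.1 before log2. Other alternatives changed the background correction, offset, scaling, filter, probe choice, variance model, replicate block and arrays used.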

Additional observations from a re-analysis of the deposited data

How the results depend on the processing

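Of the alternatives of single member probes, 446 kept the direction and side of the threshold of the reported value, 23 lost a call, 9 gained one and 0 reversed a call; 8 more changed sign with no call in either setting. The member genes called for JQ1 against DMSO numbered 5 (2 higher, 3 lower) and 3 under scaling by medians (0 higher, 3 lower), with 3 to 5 when 1 array was left out, the 3 being without the second DMSO array. Over all probes, GDC-0449 against DMSO gave 2648 calls, 1619 without the filter on dim probes, 4466 under scaling by medians, and 748 to 2485 when 1 array was left out, with 1006 and 1145 without the first and second GDC-0449 array and 748 and 974 without the first and second DMSO array. Scaling by medians also moved the split of higher and lower calls, to 465 and 4001 for GDC-0449 against DMSO (1247 and 1401 by quantiles), 2004 and 7986 for JQ1 against DMSO (4700 and 4910), and 2991 and 5177 for JQ1 against GDC-0449 (4373 and 4525); the cause was not tested. Replicate numbers are shared between groups, but same-numbered samples deviated together with correlations of 0.072, 0.0065 and -0.013, so the numbers were not taken as pairs. With a replicate block the member genes called were 5 for JQ1 and 4 for GDC-0449, each against DMSO, and 5 between the compounds, as without it. Probes below background on every array, those of Atoh1, Pax6 and Nhlh1, limit what can be said of these genes.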

Other observations

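Neurod1, just below the detection filter, was tested when every probe was kept: JQ1 against DMSO gave -0.56 (SE 0.077, adjusted p = 0.00428) and GDC-0449 against DMSO 0.19 (adjusted p = 0.316). Its JQ1 and DMSO values were all counted as not above background, so the sizes are not folds of expression. In the same setting Atoh1 gave -0.0030 with JQ1 and -0.014 with GDC-0449.

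Lhx1, a homeodomain factor of Purkinje cells and other cerebellar GABAergic neurons, was higher with both compounds. It read 11.40 and 11.47 with JQ1, 11.76 and 11.83 with GDC-0449, and 10.66 and 10.80 with DMSO. The differences from DMSO were 0.71 with JQ1 (adjusted p = 0.000429) and 1.07 with GDC-0449 (adjusted p = 0.000701). The other tested genes of the list did not follow it with JQ1. Pcp2 fell by 0.63 (adjusted p = 0.000815). Foxp2, not detected with JQ1, was at least 1.23-fold lower, the tested difference being -0.66 (adjusted p = 0.0272). Lhx5, Slc32a1 and Calb1 of the same list were detected on 0 of 6 arrays. En2, a homeodomain factor of the midbrain and cerebellum, was 0.58 higher with JQ1 (adjusted p = 0.00857) and gave 0.29 with GDC-0449 (adjusted p = 0.203). These genes were named after their values were seen.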
